A study of Mus musculus with 8 samples.

Results

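The reference groups of a mouse sperm study were set side by side: the 2 libraries of sperm with a negative-control shRNA and the 2 libraries of sperm labelled as the control for the toxin MC-LR. All 4 libraries came from sperm of Balb/c mice at 8 months after birth. The control libraries carry "control" as their agent and no shRNA. The other 2 carry a negative-control shRNA, a hairpin RNA with no intended target, and no agent. How the shRNA was delivered, and whether library A and library B are from different mice, is not in the labels. Every p-value therefore measures the spread between libraries, which may be technical. The members are the small RNA sequences, each listed under a piRNA name, that appear in both of the deposited tables. The first table pairs the control with MC-LR, and the second pairs this shRNA with an shRNA against Hsp90aa1. These were 10615 of the 20210 names of the series, which is 78.9% of the 13450 names in the control table and 61.1% of the 17375 in the shRNA table, in 4 of its 8 libraries. Because each group sits in its own table, the group and the table cannot be told apart, and the rule by which names entered a table is not given in the sources used here.

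piRNAs are small RNAs loaded into PIWI proteins in germ cells, where they guide the silencing of transposable elements and usually begin with U. Sperm carry little cytoplasm, and much of their small RNA consists of fragments of ribosomal RNA, transfer RNA and small nucleolar RNA (snoRNA), besides microRNAs. Box C/D snoRNAs, the kind whose gene symbols begin with Snord, guide methylation of the ribose in ribosomal RNA and carry a C box near the 5′ end and a D box near the 3′ end. Most are released from introns of host genes, many of which encode ribosomal proteins.

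The listed names were in large part such fragments: 4606 lay on ribosomal RNA, 1744 on snoRNA genes, 395 on microRNA genes and 105 on transfer RNA. A sequence could be read for 7302 names (68.8%), from GENCODE M21 transcripts and RefSeq microRNA hairpins of GRCm38.p6. For 5554 names (52.3%) the base that follows the name in the transcript was known too. The sequences below carry the main differences of this comparison. The first set shows names that share a start at the 5′ end of a snoRNA and differ by 1 base in length, with the last base in capitals.
Snord60, 24 nt, piR-mmu-16030528: agcccgtgatgaattaatttctgA
Snord60, 25 nt, piR-mmu-15709216: agcccgtgatgaattaatttctgaC
Snord60, 26 nt, piR-mmu-29258889: agcccgtgatgaattaatttctgacA
Snord55, 26 nt, piR-mmu-29938851: gcggatgatgacacctgggtatgctG
Snord55, 27 nt, piR-mmu-2474435: gcggatgatgacacctgggtatgctgC
Snord55, 28 nt, piR-mmu-823098: gcggatgatgacacctgggtatgctgcA
Snord55, 29 nt, piR-mmu-4392332: gcggatgatgacacctgggtatgctgcaC
Gm24452, 24 nt, piR-mmu-7445336: cttaatgatgaacaatgtaaatgA
Gm24452, 25 nt, piR-mmu-30383507: cttaatgatgaacaatgtaaatgaC
Gm24452, 26 nt, piR-mmu-4876261: cttaatgatgaacaatgtaaatgacA

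The second set shows a name from the 3′ end of a snoRNA and 3 names of ribosomal RNA, again with the last base in capitals. The snoRNA name was the most abundant of its class, the 18-nt name was the most abundant of ribosomal RNA, and the other 2 lie close together in 18S ribosomal RNA and moved in opposite directions.
Gm24452 3′ end, 28 nt, piR-mmu-2047156: ttgcaatgatgtcatcttactactgaaA
45S repeat, 18 nt, piR-mmu-49083875: tacctggttgatcctgcC
45S repeat, 29 nt, piR-mmu-2627826: ccaacttcttagagggacaagtggcgttC
45S repeat, 31 nt, piR-mmu-52883220: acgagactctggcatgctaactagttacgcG

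The third set shows mature microRNAs, grouped by seed, with the seed (bases 2 to 8) in capitals. Of the shared names, 55 were identical to one of 1674 mature mouse microRNAs of RefSeq, and 9 seeds were held by more than 1 of these names.
miR-148a-3p: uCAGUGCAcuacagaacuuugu
miR-152-3p: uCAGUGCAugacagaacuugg
let-7c-5p: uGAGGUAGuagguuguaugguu
let-7b-5p: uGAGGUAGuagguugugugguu
miR-200c-3p: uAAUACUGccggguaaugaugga
miR-200b-3p: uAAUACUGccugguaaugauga
miR-429-3p: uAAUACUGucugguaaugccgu
miR-21a-5p: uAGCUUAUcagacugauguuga
miR-17-5p: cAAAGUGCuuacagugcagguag

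Values were RPM, reads scaled to a library total set by the authors, and whole reads could be recovered from every value. The totals were 14634370 and 4960467 reads in control A and B and 9710383 and 13380630 reads in negative-control shRNA A and B. The shared names summed to 37.3% and 34.0% of the control totals but to 14.2% and 16.2% of the shRNA totals. All names of the table that holds each library summed to 38.1% and 35.3% of the control totals and to 27.8% and 32.5% of the shRNA totals. The names left out of this comparison thus held little of the listed control level and much of the listed shRNA level. Differences per library total below are those of the shared names only. By the median name, 137 and 43 reads stood behind a control value and 45 and 53 behind an shRNA value. No name of either table was at 0 in any of the 8 libraries, so names that a library lacked are not in this comparison. A name with 3 reads stands at 0.205 to 0.605 RPM depending on the library, a limit on counting error alone, because molecular identifiers were not used for these counts. Many names overlap one another, so that a read may be counted under several, and 4580 of them have more than 1 listed locus, of which 4441 hold the same value at every locus. Names are therefore not independent measurements, and a name on a multicopy gene cannot be assigned to 1 copy. Since these are bulk samples, fewer cells of a type and less RNA per cell cannot be told apart.

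Per library total, the shared names as a whole were lower with the negative-control shRNA, and few were higher. Of the 10600 names that averaged 1 RPM or more in either group, 69 (0.651%) were higher and 3718 (35.1%) were lower with the shRNA (limma on log2(RPM + 1), Benjamini-Hochberg adjusted p under 0.05), and the median log2 difference was −0.85. Fold changes of single names are on this log2(RPM + 1) scale, which understates the change of low names. Both shRNA libraries lay above both control libraries for 199 names (1.88%) and below both for 7455 names (70.3%). With 2 libraries against 2, an exact permutation test cannot give a two-sided p below 0.333. This balance depended on the scale. TMM factors, which set the bulk of the shared names level between libraries, were 1.59 and 1.39 for control and 0.709 and 0.640 for the shRNA. With them the median moved to 0.08, and limma called 23 names (0.217%) higher and 1 (0.00943%) lower, all 23 among the 69. In limma, then, the adjusted calls were almost all rises with TMM factors and almost all falls per library total. At an unadjusted p under 0.05, limma with TMM factors had 850 names higher and 1155 lower. DESeq2 with its own size factors called 140 higher and 105 lower, so the balance within the shared names also depended on the method. Without shRNA library B, 2359 names were called lower per library total. With TMM factors no name was called in either direction without shRNA library A (451 higher and 637 lower at an unadjusted p under 0.05, limma) or without shRNA library B (622 and 654), while 45 and 40 were higher without control A and without control B.

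Over the shared names, all 9 RNA classes had a lower summed level in both shRNA libraries than in both control libraries. Ribosomal RNA turned above control, by 1.42 on the log2 scale, when overlapping names were merged and only the most abundant name of each of its 24 features was summed; the 18-nt name piR-mmu-49083875 then held 26.4% to 92.8% of that sum. The snoRNA names summed to 81607 and 93905 RPM in control and to 30949 and 26978 RPM with the shRNA, a ratio of means of 3.03 in favour of control. Names classed to protein-coding exons went from 25918 and 23429 RPM to 8268 and 8682. Names outside annotated genes went from 75155 and 64428 to 22115 and 25845. The exon class includes names with several loci, such as piR-mmu-49608565, listed at 5 loci with 4666 and 1788 RPM in control. A class states an overlap with annotation. Whether names classed to exons or outside genes are pieces of ribosomal RNA was not tested. The ribosomal RNA names summed to 106940 and 92756 RPM in control and 47909 and 59644 with the shRNA, a ratio of 1.86, and names on microRNA genes to 49175 and 32267 against 17771 and 26923, a ratio of 1.82. Ribosomal RNA thus made up 28.7% and 27.3% of the summed level of shared names in control and 33.8% and 36.8% with the shRNA. Without piR-mmu-49083875, left out after values had been seen, these shares were 28.02% and 27.04% against 30.98% and 28.4%. For snoRNA the shares were 21.9% and 27.6% in control and 21.8% and 16.7% with the shRNA, so the groups lay apart by a small margin. As a share of the shared names, the sums of ribosomal RNA and microRNA genes were above control, by 0.34 and 0.36 on the log2 scale, and with TMM factors by 0.26 and 0.31; without the 18-nt name, the 0.34 of ribosomal RNA was 0.11. The microRNA shares overlapped between groups, at 13.2% and 9.49% in control and 12.5% and 16.6% with the shRNA.

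**Figure D1:**
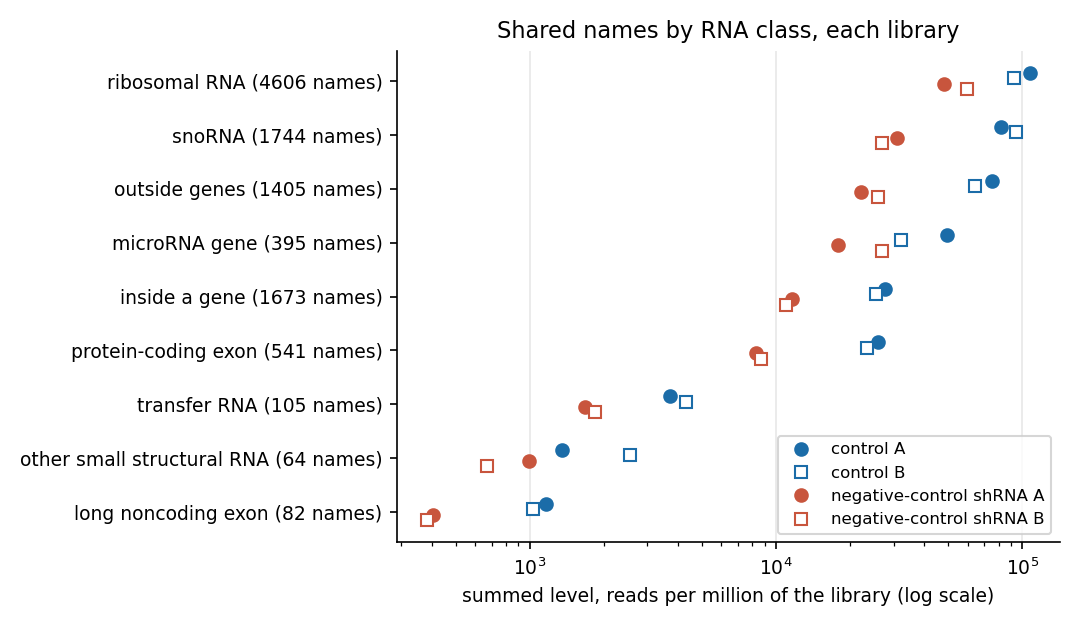
Summed RPM of the shared names in each of 9 RNA classes, on a log axis, with 1 point for each of the 4 libraries. In every class both negative-control shRNA points lie below both control points, and snoRNA falls furthest, from 81607 and 93905 RPM to 30949 and 26978 RPM.

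Most of the rises, 46 of 69, were snoRNA names, and the falls were spread over snoRNA, ribosomal RNA and the other classes. Of 1743 snoRNA names tested, 46 were higher and 1261 lower (2.64% and 72.3%, against 0.651% and 35.1% of all names), with a median log2 difference of −1.69 per library total and −0.71 with TMM factors, against −0.85 and 0.08 over all names. Ribosomal RNA had 13 higher and 1192 lower of 4600 tested, with a median of −0.74 (0.18 with TMM factors). Names on microRNA genes had 1 higher and 58 lower of 395, with a median of −0.54 (0.41 with TMM factors). The remaining 9 names that were higher lay inside genes (6), on exons of long noncoding RNA (2) or outside genes (1).

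Within the snoRNA genes, the 2 ends behaved differently. A name was placed at the 5′ or the 3′ end when it began or ended within 5 nt of that end of the gene, a split that was made after values had been seen. At the 3′ end, 954 names of 126 genes summed to 51476 and 59237 RPM in control and 15447 and 11823 with the shRNA. Of these names 817 were lower by limma (85.6%, against 35.1% of all names tested), and 916 had both shRNA libraries below both controls while 0 had both above. Over all names tested, both shRNA libraries lay below both controls for 70.3% and above both for 1.88%. At the 5′ end, 493 names of 100 genes summed to 12999 and 16106 RPM in control and 10617 and 10982 with the shRNA. Here 44 names were higher and 222 lower of 492 tested (8.94% and 45.1%, against 0.651% and 35.1% of all names). Both shRNA libraries lay above both controls for 69 of them and below both for 327. The 258 inner names had 2 higher and 194 lower (0.775% and 75.2%). The median log2 difference was −1.12 at the 5′ end, −1.73 for inner names and −1.84 at the 3′ end, and −0.18, −0.76 and −0.85 with TMM factors. In 64 of the 68 genes with names at both ends, the median of the 5′-end names lay above that of the 3′-end names.

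The C box of these RNAs has the letters TGATGA, which were searched on the strand of the name only; they can overlap CTGA, the letters of the D box, in the run CTGATGA. They were found in 330 of the 465 5′-end names with a sequence (71.0%), in 41 of 900 names of the 3′ end (4.56%) and in 485 of all 7302 (6.64%). Among the 40 higher names of the 5′ end with a sequence, 33 held them. They stand near the start of the Snord55, Snord60 and Gm24452 names printed above, shared by the longer and the shorter name alike, including names that fell.

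The names that rose at the 5′ end were set apart by where they ended. The 25-nt name of Snord60 at chr17:24528476-24528500 (plus strand) stood at 18.04 and 19.6 RPM in the control libraries and at 199 and 236 RPM with the shRNA, from 264, 97, 1931 and 3155 reads. Its log2 difference was 3.46 ± 0.32 (SE; limma adjusted p = 0.0086), and with TMM factors 4.56. The name that ends 1 base earlier went from 21.1 and 15.3 RPM to 5.77 and 6.88 RPM, and the name that ends 1 base later from 27.9 and 26.6 RPM to 7.83 and 7.47 RPM. So the 3 names had similar levels in control, while with the shRNA the middle one was far above the others. Both neighbours passed as lower, at −1.38 and −1.71, and neither passed with TMM factors.

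Snord55, also of the C/D box kind, held the same kind of step. The 27-nt name of Snord55 went from 26.0 and 23.4 RPM in control to 193 and 210.3 RPM with the shRNA (log2 difference 2.98 ± 0.32, SE; limma adjusted p = 0.0086). The 29-nt name with the same start went from 24.7 and 24.4 RPM to 146 and 141 RPM (2.50). Between them, the 28-nt name fell from 17.2 and 18.5 RPM to 4.22 and 4.26 RPM (−1.85), and below them the 26-nt name fell from 25.6 and 22.4 RPM to 7.93 and 12.6 RPM (−1.18). Each of the 2 rising names ends in C with A as the next base of the transcript, as the line of the 28-nt name above shows for the 27-nt name. A 30-nt name that starts 1 base earlier and ends with the 29-nt name rose as well, from 1.64 and 1.61 RPM to 13.0 and 10.01 RPM (2.24). In Snord38a, the only name of the 5′ end, 23 nt long, rose from 18.7 and 16.9 RPM to 115 and 132 RPM (2.73). The other 8 of its 9 names lay elsewhere in the gene and fell, so no neighbouring length could be compared.

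Gm24452, a snoRNA of chromosome 19 known by its gene-model name, gave both the most abundant snoRNA name and a strong rise. Its 25-nt name of the 5′ end, at chr19:8724533-8724557 (plus strand), went from 71.7 and 65.1 RPM in control to 575 and 630.0 RPM with the shRNA (log2 difference 3.12 ± 0.30, SE; limma adjusted p = 0.0086). The 24-nt name fell from 62.5 and 53.2 RPM to 18.7 and 22.4 RPM, and the 26-nt name from 36.7 and 35.1 RPM to 10.9 and 11.6 RPM. At the 3′ end of the same gene, piR-mmu-2047156 at chr19:8724573-8724600 stood at 4393 and 6182 RPM in control and 1512 and 1170.0 RPM with the shRNA (−1.97). The groups did not overlap for any of these 4 names. Over the whole gene, 2 names rose and 28 fell of 36, and the sum went from 12529 and 15077 RPM to 4452 and 3985 RPM, so the rise of the 25-nt name stood within a lower total.

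**Figure D2:**
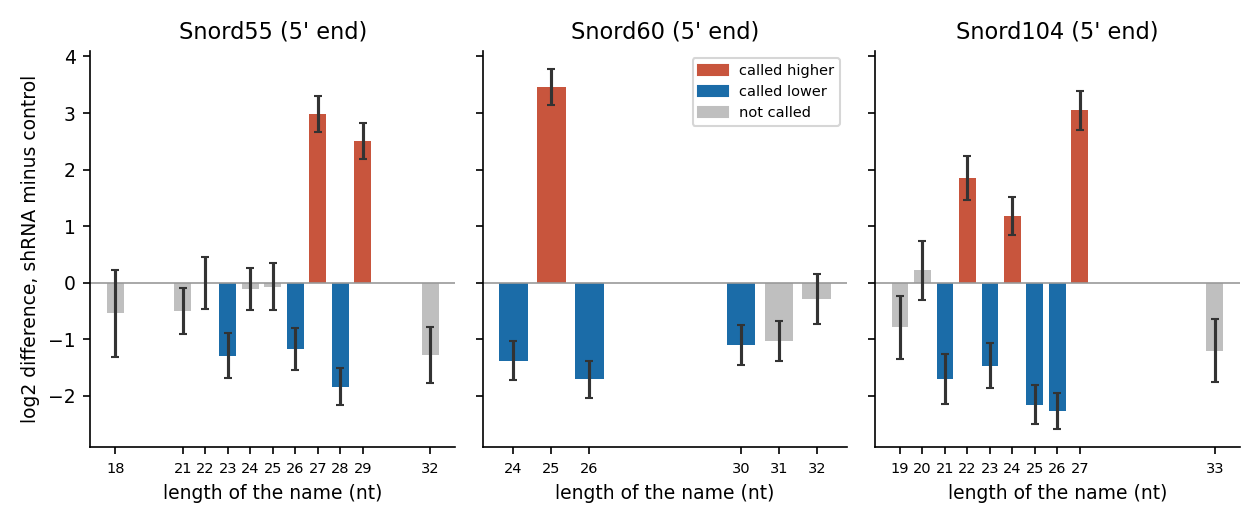
Log2 difference (negative-control shRNA minus control, log2(RPM + 1) scale) of names that share a start at the 5′ end of a snoRNA, by length in nt. Bars are coloured by the limma call and error bars are the SE; rises stand at single lengths, such as 27 and 29 nt of Snord55, next to lengths that fell.

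Snord104 had rises at 22, 24 and 27 nt, from 61.2 and 40.5 to 146 and 228 RPM, from 176 and 134 to 296 and 411 RPM, and from 17.3 and 12.9 to 121 and 141 RPM. The names of 21, 23, 25 and 26 nt with the same start at chr11:106500991 fell, the last of them from 205 and 178 RPM to 36.7 and 40.6 RPM. No sequence was found for these names. Snord110, which lies in an intron of Nop56, had a 26-nt name that rose from 5.47 and 6.05 RPM to 42.2 and 40.2 RPM (2.64), next to names of 24 and 25 nt that fell by 1.90 and 1.38. Snord57, of the same host gene, showed how narrow the rise was. Its most abundant name of the 5′ end, 29 nt long, fell from 671 and 761 RPM to 210.0 and 185 RPM (−1.85), while a 31-nt name starting 1 base later rose from 6.70 and 12.9 RPM to 66.3 and 45.7 RPM (2.44). It was the 1 rise among 27 names of that gene. Snord34, in an intron of Rpl13a, had a 27-nt name that rose from 22.3 and 23.4 RPM to 96.5 and 108 RPM (2.11), while its 24-nt name stood at 24.9 and 17.7 RPM and at 9.68 and 9.72 RPM (−1.04, limma adjusted p = 0.052).

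Across all names, the rises shared an ending that the comparison itself had not selected, and the count was made after values had been seen. Of the 58 higher names with a sequence, 46 (79.3%) ended in C, against 27.1% of all names with a sequence, and 8 ended in U. Of the 52 with a known next base, 38 (73.1%) ended in C before A, against 437 of 5554 names (7.87%), and 5 ended in U before A. Over all names with a known next base, the median log2 difference was −0.58 for C before A and −0.51 for U before A. With TMM factors these medians were 0.36 and 0.46. All 21 names that were higher with TMM factors and had a sequence ended in C, and 19 of the 21 ended in C before A. At the 5′ end of snoRNA, 68 names of 44 genes ended in C before A. These had 30 higher and 4 lower, with a median log2 difference of 1.01, or 1.92 with TMM factors. The 36 names that ended in U before A had 4 higher and 6 lower with a median of 0.09, and the 361 names with any other ending had 6 higher and 201 lower with a median of −1.31. Exceptions existed: the 25-nt name of Snord43, which lies in an intron of Rpl3, ended in C before G and rose from 14.7 and 11.9 RPM to 71.5 and 83.8 RPM (2.46).

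The same was seen as a share within each library, which does not depend on how libraries are scaled to each other. The ending was picked from the calls in the control and negative-control shRNA libraries. For these libraries, the shares here and the pairs and genes below thus describe that pattern and are not separate support. Of the reads of 5′-end snoRNA names with a known next base, 28221 of 173972 (16.2%) ended in C before A in control A and 8935 of 75760 (11.8%) in control B. With the negative-control shRNA it was 42531 of 95504 (44.5%) in library A and 69724 of 131987 (52.8%) in library B. The groups lay 34.7 percentage points apart, far beyond the spread within either, and between 30.5 and 38.8 points with any 1 of the 4 libraries left out. In the other libraries of the series, the share was 17.7% and 16.9% under MC-LR and 17.3% and 13.7% with the Hsp90aa1 shRNA. The Hsp90aa1 shRNA libraries are in the same deposited table as the negative-control shRNA, from 1728 of 10008 and 1025 of 7459 reads, and their shares lay in the range of the control and MC-LR libraries. At the 3′ end of snoRNA the share ending in C before A was 10.9% and 10.7% in control and 10.4% and 11.4% with the negative-control shRNA, so no such difference was seen there. On ribosomal RNA it was 5.86% and 5.87% in control, 10.3% and 9.57% with the negative-control shRNA, and between 5.89% and 6.67% in the other 4 libraries. Shares of reads ending in U before A were closer: 5.88% and 5.41% against 8.44% and 7.57% at the 5′ end of snoRNA, and 12.9% and 13.0% against 14.0% and 14.6% on ribosomal RNA.

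**Figure D3:**
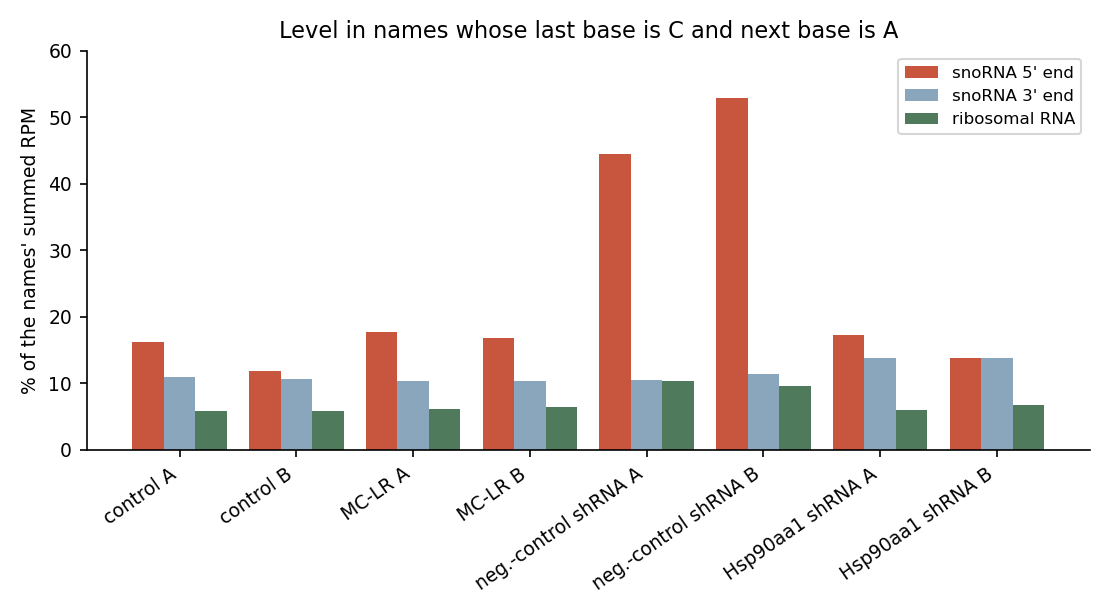
Share of reads, in percent and within each library, that belong to names ending in C before A, for 5′-end snoRNA, 3′-end snoRNA and ribosomal RNA names in all 8 libraries. The 2 negative-control shRNA libraries stand at 44.5% and 52.8% for the 5′ end of snoRNA, and the other 6 libraries between 11.8% and 17.7%.

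Pairs of names with the same start, from the same libraries, described the same pattern. A 5′-end snoRNA name ending in C before A had a higher log2 difference than the name 1 nt shorter in 30 of 30 pairs, by a median of 2.31, and than the name 1 nt longer in 12 of 13 pairs, by 1.79. On ribosomal RNA it was above the shorter name in 114 of 131 pairs (median 0.69) and above the longer name in 77 of 99 (median 0.32). Names ending in U before A were similar in this respect. At the 5′ end of snoRNA they were above the shorter name in 14 of 15 pairs (median 1.35) and above the longer in 6 of 7 (1.43). On ribosomal RNA the counts were 104 of 128 (0.43) and 80 of 108 (0.23). Other endings varied widely. At the 5′ end of snoRNA, U before G was above the shorter name in 16 of 22 pairs (0.48) and the longer in 16 of 19 (0.74). For G before C the counts there were 2 of 9 and 0 of 7. On ribosomal RNA, C before G was above the longer name in 110 of 155 pairs (0.20), and G before C in 46 of 190 (−0.30). By gene, the share of the 5′-end level held by names ending in C before A was higher in both shRNA libraries than in both controls in 26 of 31 snoRNA genes, lower in 1 and overlapping in 4. In Snord60 this share was 22.3% and 22.8% in control against 87.8% and 91.3% with the shRNA. In Gm24452 it was 34.7% and 35.1% against 83.5% and 81.4%. For names ending in U before A the share was higher in both shRNA libraries in 12 of 24 genes. These pairs and genes share libraries, and neighbouring names can share reads. For the rises, the bases around the start of a name showed no comparable pattern. Of the 16 combinations of the base before the start and the first base, none had more than 1.74% of its names higher. The falls did differ by these bases, from 18.8% of names lower (G before C, median −0.60) to 55.1% (A before U, median −1.35). By the last and next base, the share lower ran from 16.7% to 54.1%.

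Falls among snoRNA names were deepest at the 3′ end and included H/ACA snoRNAs, which guide the conversion of uridine to pseudouridine and have symbols beginning with Snora. In Snora16a, piR-mmu-4775345 at chr4:132309576-132309600 went from 160.0 and 149.8 RPM in control to 13.1 and 12.9 RPM with the shRNA (log2 difference −3.48 ± 0.32, SE; limma adjusted p = 0.0086). In Snora24, piR-mmu-2360037 went from 107 and 95.8 RPM to 9.27 and 7.32 RPM (−3.47). In Gm25835, a snoRNA gene without a Snora symbol, piR-mmu-4679168 went from 108 and 123 RPM to 10.6 and 9.72 RPM (−3.38). For each of these names the libraries of a group lay close together, and the groups lay far apart. A name of 29 nt at 3 loci including Gm22192, piR-mmu-14629648, fell by 3.35, and a 23-nt name at the shared locus of Mir3068 and a snoRNA on chromosome 12, piR-mmu-48804120, fell by 3.59. With TMM factors these 5 log2 differences ranged from −2.52 to −2.29, and only the Mir3068 name passed (limma adjusted p = 0.048). Among the most abundant names, piR-mmu-2400221 in Snord43 stood at 3942 and 3994 RPM in control and 975 and 956 RPM with the shRNA (−2.04). The most abundant name in Snord85, piR-mmu-16475466, stood at 3119.6 and 3097 RPM and at 890.5 and 937 RPM (−1.77).

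The most abundant name of ribosomal RNA rose against the trend of its class. The 18-nt name piR-mmu-49083875 has the letters that begin mature 18S ribosomal RNA, as printed above, and stood at 3468 and 1090.4 RPM in control and at 5798 and 19044 RPM with the shRNA. Its libraries differed within each group by a wide margin, and the groups did not overlap. It passed as higher per library total (log2 difference 2.43 ± 0.71, SE; limma adjusted p = 0.036) but not with TMM factors (3.57, adjusted p = 0.15), nor per library total without control B (1.60, adjusted p = 0.11). The name is listed at 2 loci. It held 3.24% and 1.18% of the ribosomal RNA sum in control and 12.1% and 31.9% with the shRNA. Without it the sums were 103472 and 91666 RPM in control and 42111 and 40600 RPM with the shRNA, a log2 difference of −1.24 in place of −0.89.

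The 2 names of 18S ribosomal RNA printed above lie close to each other in the 45S repeat copy on chromosome 17. The 29-nt name at chr17:39847795-39847823, which ends in C before A, rose from 14.3 and 15.1 RPM to 107 and 109 RPM (log2 difference 2.80 ± 0.32, SE; limma adjusted p = 0.0086), also with TMM factors (3.89, adjusted p = 0.022). The 31-nt name at chr17:39847742-39847772 fell from 587 and 872 RPM to 60.1 and 44.2 RPM (−3.77 ± 0.35, SE; limma adjusted p = 0.0086), the deepest fall by the rule used to name items, but did not pass with TMM factors (−2.64, adjusted p = 0.073). Shorter names whose letters match the 3′ part of the 29-nt name also rose: those of 21, 23, 24 and 27 nt rose by 1.71, 1.33, 1.53 and 1.18. A second group of 4 rising names, of 24 to 30 nt, ended together at chr17:39848165, again in C before A. All 13 rising names of ribosomal RNA ended in C, and the 8 with a known next base ended before A.

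Names on microRNA genes were lower per library total but higher within the shared names, and few passed either way. Of the 55 names identical to a mature microRNA, 12 were lower (21.8%, against 35.1% of all names), with a median of −0.78 per library total and 0.27 with TMM factors. The most abundant of all shared names was miR-148a-3p, at chr6:51269829-51269850 in Mir148a, with 17716 and 10754 RPM in control and 5054 and 7411 RPM with the shRNA. The groups did not overlap, yet its call was marginal (log2 difference −1.17 ± 0.38, SE; limma adjusted p = 0.045). It was lost when any 1 library was left out (−1.53 to −0.81, adjusted p = 0.058 to 0.29) and with TMM factors (−0.03). Its seed partner miR-152-3p stood at 178 and 102 RPM in control and 50.5 and 92.4 RPM with the shRNA (−0.97, adjusted p = 0.12).

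Members of the let-7 family, which are abundant in differentiated tissue and repress growth genes, were represented by 26 names of 11 genes. Their sum was 10037 and 6647 RPM in control and 3842 and 6158 RPM with the shRNA, and 6 of the 26 names were lower (23.1%, against 35.1% of all names). The most abundant, let-7c-5p, stood at 3966 and 2387 RPM and at 1454 and 2426 RPM (−0.71, limma adjusted p = 0.19), so 1 shRNA library reached the lower control. It is listed at 3 loci. In contrast, let-7b-5p passed as lower, from 517 and 343 RPM to 124 and 214 RPM (−1.36, adjusted p = 0.032). As a share of the names on microRNA genes, the let-7 sum was 0.12 above control on the log2 scale.

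A few mature microRNAs did not share the general fall per library total. The broadly expressed miR-21a-5p stood at 913 and 614 RPM in control and 632 and 953 RPM with the shRNA (0.05). For miR-17-5p, a member of the growth-promoting miR-17 cluster, the values were 32.2 and 27.4 RPM and 45.003 and 51.8 RPM (0.68, limma adjusted p = 0.14). The groups did not overlap for miR-17-5p, and neither microRNA passed. The seed partners miR-27a-3p and miR-27b-3p had nearly equal values. These were 277 and 172 against 131 and 233 RPM for the first and 279 and 174 against 136 and 243 RPM for the second. Whether the same reads were counted under both names was not tested, so they are not taken as separate measurements.

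Lists of microRNAs that mark cell types gave the following levels. No germ cell gene (0 of 18, among them Mir34c and Mir449a) and no liver gene (0 of 2) was among the shared names, which does not show that they were unexpressed, since the tables list only part of each library. The epithelial miR-200 family and Mir141 (5 of 5 genes, 21 names) summed to 6388 and 4690 RPM in control and 2418 and 3483 RPM with the shRNA, with 1 name lower. That name was miR-200c-3p, at 1507 and 1109 RPM against 522 and 719.8 RPM (−1.08, limma adjusted p = 0.043), which lost its call without any 1 library (−1.31 to −0.84, adjusted p = 0.084 to 0.27). Its seed partners miR-200b-3p (−0.86, adjusted p = 0.091) and miR-429-3p (−0.77, adjusted p = 0.18) did not pass. Genes of smooth muscle and stroma (5 of 7 measured) summed to 677 and 462 RPM in control and 327 and 556 RPM with the shRNA, and striated muscle (2 of 5) to 407 and 220 against 144 and 242 RPM. Both lists overlapped between groups.

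The blood cell list stood apart in direction, at a low level. Its 2 measured genes of 9, Mir451a and Mir142, summed to 19.1 and 16.1 RPM in control and 21.1 and 31.5 RPM with the shRNA. The Mir451a name, from the microRNA of red blood cells, stood at 1.91 and 3.02 RPM in control and 8.24 and 9.87 RPM with the shRNA (log2 difference 1.55 ± 0.35, SE; limma adjusted p = 0.016). It was the 1 name on a microRNA gene that passed as higher, and it lost the call without control A (1.32, adjusted p = 0.053) and with TMM factors (2.44, adjusted p = 0.061). The Mir142 name, from the microRNA of white blood cells, was at 4.78 and 4.44 RPM and at 4.12 and 6.43 RPM. The sum of the list was 0.26 to 0.84 above control on the log2 scale with 1 library left out, the lowest value without shRNA library B. The part of blood cells in any other difference was not tested.

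**Figure D4:**
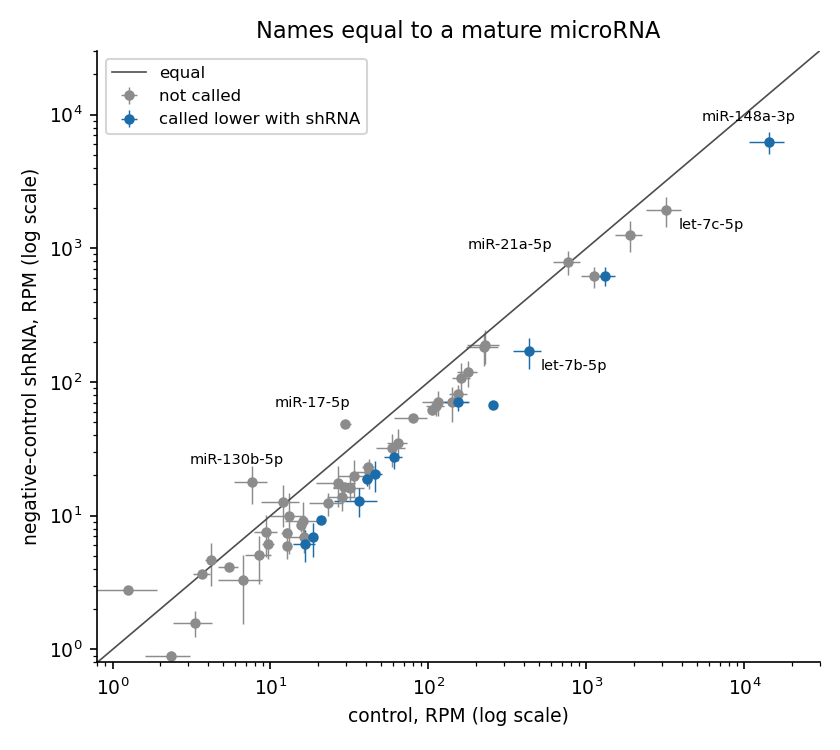
Level in RPM, on log axes, of the 55 names identical to a mature microRNA, with the control mean on the horizontal axis and the negative-control shRNA mean on the vertical axis; bars span the 2 libraries of each group. Most points lie below the line of equal levels, among them miR-148a-3p, while miR-21a-5p lies on it and miR-17-5p above it.

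Among names not classed to structural RNA or microRNA genes, rises were few. The class is by overlap with annotated loci, and whether the names below are pieces of ribosomal RNA was not tested. A 30-nt name inside 5430416N02Rik, piR-mmu-55533771 at chr5:100426926-100426955 (minus strand), went from 37.9 and 49.2 RPM in control to 247 and 197 RPM with the shRNA (2.33). It also passed with TMM factors (3.45, limma adjusted p = 0.038). Of the 23 rises under that scale, 21 lay on snoRNA, and the remaining 2 were this name and the 29-nt name of ribosomal RNA above. Falls were broad. Inside Dnah10, which encodes a dynein heavy chain of cilia and flagella, but outside its sense exons, piR-mmu-21467820 went from 1378 and 1029.5 RPM to 198 and 232 RPM (−2.47). The abundant name piR-mmu-48788131, outside genes at chr6:3201476-3201496, went from 9225 and 5797 RPM to 1472 and 2549.6 RPM (−1.92). The 19-nt name piR-mmu-49608565, listed at 5 loci, among them an exon of Lars2, went from 4666 and 1788 RPM to 314 and 1034 RPM (−2.34, limma adjusted p = 0.033) and did not pass without control A (−1.65, adjusted p = 0.066).

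The 2 libraries of each group differed by fragment length, and in opposite directions. Names of 17 nt had a median log2 difference between library A and library B of 1.51 in control and −1.32 with the shRNA, and names of 33 nt of −1.39 and 1.14. The mean length weighted by RPM was 24.9 and 26.6 nt in control A and B and 26.03 and 23.998 nt in shRNA A and B. Names of 17 to 23 nt accordingly summed to 146462 and 81586 RPM in control and 40808 and 78475 RPM with the shRNA, and names of 29 to 35 nt to 65844 and 112822 against 41867 and 25764 RPM. The A minus B differences of the groups had a correlation of −0.68 over the 10615 names, which share library depth and length, so this is a description only. Across lengths the difference between groups itself was even: its median lay between −1.11 and −0.73 at every length from 17 to 35 nt. The letters A and B name libraries and do not pair them in the labels.

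**Figure D5:**
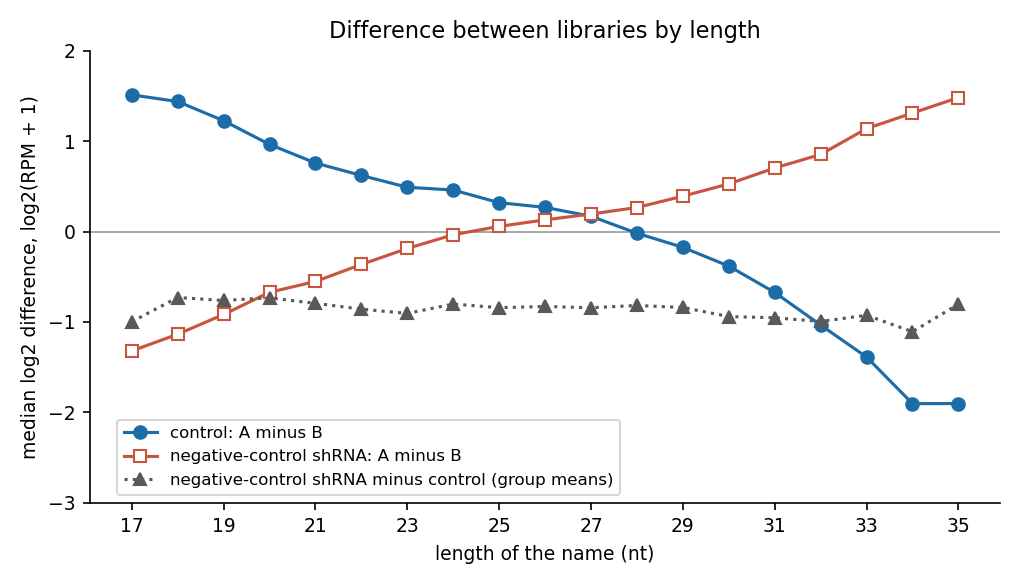
Median log2 difference of the shared names by length in nt, for control A minus B, negative-control shRNA A minus B, and the shRNA minus the control mean. The lines of A minus B cross, from 1.51 and −1.32 at 17 nt to −1.39 and 1.14 at 33 nt, while the line between the groups stays below 0 throughout.

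Sequences covered mostly structural RNA: of 7302 names, 4590 lay on ribosomal RNA and 1662 on snoRNA genes. Almost none was read for the 1673 names inside genes and the 1405 outside genes, so their first base is not known. Among the names with a sequence, a first U, the usual start of piRNAs, was not a general feature. It began 29.1% of the names with a sequence. Weighted by RPM it began 44.2% and 40.5% of their level in control and 45.5% and 55.6% with the shRNA. On microRNA genes the shares were 90.1% and 90.0% against 88.9% and 89.3%, alike in all 4 libraries. On ribosomal RNA they were 28.4% and 25.05% against 35.1% and 49.9%, the 18-nt name that begins with U included. At 24 to 28 nt of ribosomal RNA, a range without that name, the shares were 26.3% and 25.8% in control and 27.5% and 27.2% with the shRNA.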

How the data were processed

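Small RNA was sequenced from sperm; Trizol extraction and an NEB library kit were used, per the labels' protocols. The authors deposited RPM values per piRNA name and locus, 1 table for each pair of groups, all of them with unpooled replicates. The submitters' processing notes name the build mm10 with the tools HTSeq 0.6.0, HISAT2 2.1.0 and Bowtie2 2.2.3. Their roles, the denominator of the RPM and the criterion for listing a name are not given in the sources used.

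Each shared name was used once. In the deposited RPM columns 100% of values were a whole number of reads (within 0.01), so the columns of both tables could be set side by side per library total. The main test was limma 3.58.1 (trend and robust) in R 4.3.3, on log2(RPM + 1) of names whose mean reached 1 RPM in either group, at an adjusted p under 0.05. As an alternative, edgeR 4.0.16 on the recovered reads called 71 names higher and 3813 lower on library totals, and DESeq2 1.42.0 was also run. Other alternatives were pseudocounts of 0.5 and 5, a filter at 10 RPM, no filter, TMM factors, equal medians, merged names, single-locus names, the replicate block and leaving out each library. The scripts were tested on simulated data.

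Loci took a class by an overlap of at least 0.5 of their length with GENCODE M21 or RefSeq genes of GRCm38, and a name took the first class among its loci. The 45S repeat copy was the annotated stretch chr17:39843013-39848827. Ribosomal RNA outside it was classed as such only where a ribosomal RNA gene is annotated. Starts are printed 1-based. Names were chosen by rule: the 8 most abundant, the 6 largest rises and 6 largest falls of at least median abundance without group overlap, the most abundant and the smallest p of each class, and the most abundant name of up to 4 genes of each microRNA list, 42 in all. The snoRNA genes shown by length, the mature microRNAs and the remaining rising names were named after their values had been seen. The members and lists were chosen with earlier results of these data known. Names on chromosome 18 are given without sequence.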

Additional observations from a re-analysis of the deposited data

How the results depend on the processing

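For the names called, per library total, 69 were higher and 3718 lower. The counts were 23 and 1 with TMM factors, 15 and 0 with equal library medians (limma; 697 and 1310 at an unadjusted p under 0.05), 10 and 0 with edgeR on recovered reads and TMM factors (870 and 1135), and 140 and 105 with DESeq2 and its size factors. Overlapping names merged into 706 features, each represented by its most abundant name, gave 30 and 302, and 58 and 34 with TMM factors. Names with a single listed locus gave 60 and 2413.

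With 1 library left out the counts ranged from 0 to 72 higher and from 0 to 3253 lower over both scales, the 0 standing with TMM factors, where 45 and 40 were higher without control A and B; per library total, 2359 to 3253 were lower. The replicate block on the letters A and B called 0 higher and 0 lower by limma (64 and 3477 at an unadjusted p under 0.05). The letters do not pair libraries in the labels. Of the 42 named items, 31 had a call, and all 31 lost it in that fit. The crossed pairing, chosen after the data were seen, called 146 higher and 6443 lower, and 1693 and 2009 with TMM factors. The remaining alternatives (both pseudocounts, both filters on low values, edgeR on library totals, all 8 libraries) kept both counts within 1.5 times.

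Log2 differences of the class sums, below 0 in each class per library total, became as a share of the shared names 0.34 (ribosomal RNA), 0.037 (transfer RNA), −0.36 (snoRNA), 0.0074 (other structural RNA), 0.36 (microRNA genes), −0.31 (protein-coding exons), −0.24 (long noncoding exons), 0.0076 (inside genes) and −0.31 (outside genes). With TMM factors they were 0.26 (ribosomal RNA), −0.054 (transfer RNA), −0.47 (snoRNA), −0.13 (other structural RNA), 0.31 (microRNA genes), −0.40 (protein-coding exons), −0.34 (long noncoding exons), −0.0927 (inside genes) and −0.39 (outside genes). Over names with a single locus they were −1.32 (ribosomal RNA), −0.33 (transfer RNA), −1.79 (protein-coding exons), −1.65 (long noncoding exons) and −1.04 (inside genes). With only the most abundant name of each such feature summed they were 1.42 (ribosomal RNA), −1.43 (snoRNA), −1.91 (protein-coding exons) and −1.75 (outside genes), and by the class of the printed locus −1.25 (ribosomal RNA), −1.73 (protein-coding exons), −1.76 (long noncoding exons) and −0.29 (inside genes). Without its most abundant name, chosen after the data were seen, ribosomal RNA differed by −1.24, and by 0.11 as a share of the shared names.

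As a share of the names on microRNA genes, list sums differed by −0.052 (epithelium), 0.48 (smooth muscle and stroma), 1.41 (blood cells), 0.18 (striated muscle) and 0.12 (let-7). The blood cell list gave 1.02 with the most abundant name of each gene, and 0.26 to 0.84 with 1 library left out. Names of 17 to 23 nt not classed to structural RNA or microRNA genes differed by −1.73. The share of ribosomal RNA reads ending in C before A differed by 3.63 percentage points over names with a single locus.

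Weighting each name equally, the share beginning with U became 27.3% (ribosomal and transfer RNA), 29.3% (snoRNA), 25.4% (other structural RNA), 48.3% (microRNA genes), 33.3% (protein-coding exons), 19.5% (long noncoding exons) and 29.1% (all names with a sequence).

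Of the named items, 9 turned from below to above 0 with scaling within the shared names, here with TMM factors, equal medians, edgeR with TMM factors and DESeq2: piR-mmu-10845317 (glycine tRNA) at 0.23, 0.17, 0.16 and 0.11; piR-mmu-10875038 (miR-200c-3p) at 0.063, 0.00067, 0.0896 and 0.045; piR-mmu-10879204 (let-7c-5p) at 0.43, 0.37, 0.47 and 0.42. The next were piR-mmu-48716468 (miR-200b-3p) at 0.28, 0.22, 0.31 and 0.27, piR-mmu-48723083 (Mirlet7a) at 0.74, 0.68, 0.82 and 0.78, piR-mmu-48741163 (Mir1a) at 0.47, 0.41, 0.49 and 0.45. The last were piR-mmu-48754416 (Mir199a) at 0.24, 0.18, 0.32 and 0.27, piR-mmu-48796488 (miR-200a-3p) at 0.53, 0.46, 0.58 and 0.54, piR-mmu-49209288 (miR-429-3p) at 0.32, 0.26, 0.41 and 0.37. With 1 library left out, piR-mmu-37690755 (Mir143) ranged from −0.27 to 0.41, piR-mmu-48723083 from −0.88 to 0.093 and piR-mmu-48723362 (Mir142) from −0.13 to 0.41. The cause of these changes was not tested. Depth limits the low names most, since control B has the fewest reads and 3 reads there stand at 0.605 RPM.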

Other observations

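Transfer RNA held 105 shared names, 48 of them lower per library total (45.7%, against 35.1% of all names). Glycine tRNA, a usual source of 5′ tRNA fragments in sperm, led with 34 names that summed to 1753 and 2421 RPM in control and 1020.2 and 865 RPM with the negative-control shRNA. Glutamate tRNA followed with 23 names, at 1297 and 1315 RPM in control and 394 and 397 RPM with the shRNA. The libraries of a group were close for glutamate and further apart for glycine, and neither overlapped between groups. Of the names, 19 of glycine tRNA and 14 of glutamate tRNA were lower (limma). For valine tRNA, 4 of 8 names were lower (median log2 difference −0.88), but the sum overlapped between groups, at 56.5 and 108 RPM in control and at 42.9 and 244 RPM with the shRNA.

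Among other small structural RNAs, a name in Rmrp, the RNA of the RNase MRP complex, stood at 799.6 and 1662 RPM in control and 626 and 405 RPM with the shRNA (log2 difference −1.19, limma adjusted p = 0.072). It passed without control A (−1.72, adjusted p = 0.027) and without shRNA library A (−1.51, adjusted p = 0.040). A 22-nt name in Rny3, a Y RNA, fell from 20.02 and 15.1 RPM to 1.85 and 3.81 RPM (−2.31, limma adjusted p = 0.0086).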
